A study of Mus musculus with 6 samples.

Results

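miR-6343, miR-6538 and miR-7225-5p are 3 mouse miRNAs that were chosen by their counts in these hearts: low in sham and 9-fold or more higher under pressure overload. They are 3 of 1966 rows of mature miRNAs, and of the 354 rows with enough counts to be tested 0.847% had a fitted rise of that size. Small RNA came from whole hearts of 6 male wild-type (WT) mice, each giving 1 library. The sham group (animals 47, 68 and 69) had surgery without constriction, and the TAC group (animals 29, 78 and 81) had transverse aortic constriction, a narrowing of the aorta that loads the left ventricle. All hearts were taken 8 weeks after surgery, and the labels read here state neither the age nor the strain of the mice.

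A miRNA is a short RNA cut from a hairpin in a longer transcript, and it represses mRNAs that pair with its seed, bases 2 to 8 from its 5′ end. Many miRNA hairpins lie inside introns or exons of other genes, called hosts, and can be transcribed together with them. High-numbered miRNAs such as these entered the catalogue late, mostly from deep sequencing, and their functions in the heart are little studied. In whole tissue, fewer cells of a type and less RNA per cell cannot be told apart.

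The mature sequences of the 3 miRNAs are shown because they are the items counted, with those of the other arm of the miR-7225 hairpin and of miR-5126, the next largest rise among the 354 tested rows. They are from RefSeq (GRCm38.p6), 5′ to 3′, with the seed in capitals.
miR-6343: uGUAAAGUaggagcugacugac
miR-6538: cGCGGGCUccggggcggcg
miR-7225-5p: aCGUAGACuguguagaagcc
miR-7225-3p: cUUCUAGAcagccucugcagca
miR-5126: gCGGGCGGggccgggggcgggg
The 3 miRNAs did not share a seed with each other, and 0 other rows of the table with a known sequence carried any of their seeds. The longest run of bases that 2 of them had in common was 5 (gacug, in miR-6343 and miR-7225-5p). miR-6538 and miR-5126 had a run of 7 in common (ggggcgg). miR-6538 holds no A and a single U, with a GC content of 94.7%, and 4 of 1675 rows with a sequence, itself included, were at least as GC-rich. miR-7225-5p (50.0%) was near the median of 52.2%, and miR-6343 (45.5%) was lower, as 75.1% of rows were at least as GC-rich. At 19 bases miR-6538 was also short, as 2.87% of rows were no longer than that.

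The hairpins of miR-6343 and miR-6538 are shown for the position of the mature miRNA (capitals), which lies in the 3′ arm of the first and the 5′ arm of the second.
miR-6343 hairpin: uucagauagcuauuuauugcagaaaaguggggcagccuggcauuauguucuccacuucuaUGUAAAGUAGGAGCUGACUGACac
miR-6538 hairpin: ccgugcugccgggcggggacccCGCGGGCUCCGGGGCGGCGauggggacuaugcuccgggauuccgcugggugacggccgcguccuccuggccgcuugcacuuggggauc
RNAfold predicted a minimum free energy of -24.8 kcal/mol for the miR-6343 hairpin of 84 bases, or -0.30 per base. That was weak among 1005 mouse hairpins, of which 10.3% were weaker per base. The miR-6538 hairpin of 110 bases had -51.7 kcal/mol (-0.47 per base, with 76.5% of hairpins weaker) and a GC content of 75.5%. The miR-7225 hairpin, at 54 bases, was short, as 1.39% of hairpins were shorter, and its -21.7 kcal/mol (-0.40 per base) was close to the median of -0.41 per base. In the predicted folds 18 of 22 bases of miR-6343, 14 of 19 of miR-6538 and 17 of 20 of miR-7225-5p were paired.

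**Figure D1:**
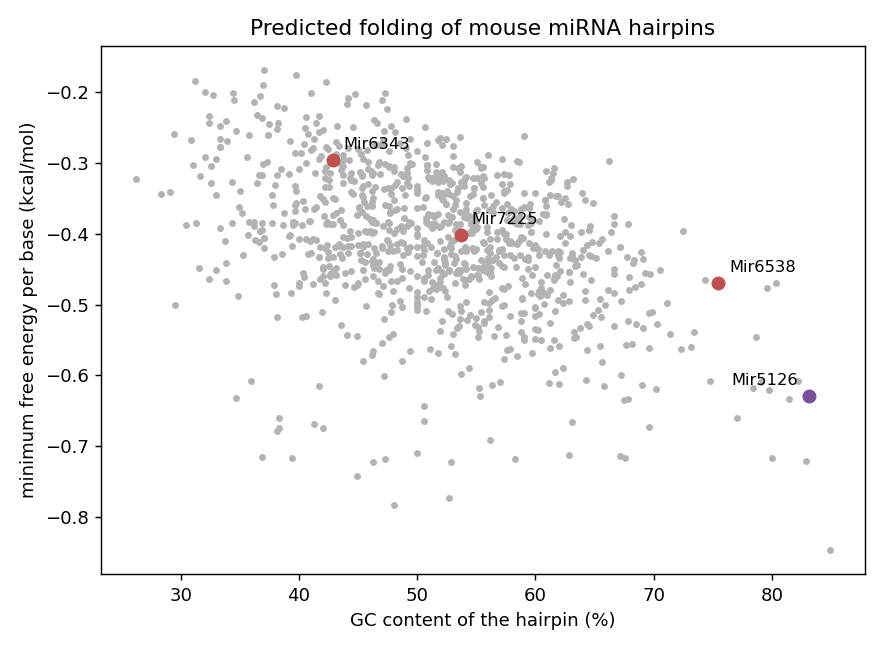
Predicted minimum free energy per base (kcal/mol, vertical axis) against GC content (%, horizontal axis) for 1005 mouse miRNA hairpins (grey). The hairpins of the 3 miRNAs are red and that of miR-5126 is purple: miR-6343 lies at the weak end at -0.30 per base, while miR-6538 and miR-5126 lie at the GC-rich end at 75.5% and 83.1%.

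The 3 miRNAs lie on different chromosomes, each inside a longer gene on its own strand (mm10, the same assembly as GENCODE M21). miR-6343 (chr1:76509620-76509641, plus strand) is in the only intron of Gm29069, a long noncoding RNA gene of 107731 bases, 88928 bases after its start. miR-6538 (chr12:26414970-26414988, minus strand) is in the first intron of Rnf144a, which encodes an E3 ubiquitin ligase. It sits 266 bases after the start of that gene and 113 bases beyond the first exon, at the very 5′ end of a gene of 114291 bases. miR-7225-5p (chr3:97690543-97690562, minus strand) is in the last exon of Pde4dip, which encodes myomegalin, a protein of the Golgi, the centrosome and the sarcomere. Its place is 253 bases past the end of the coding sequence, so in the 3′ UTR, in 2 of the 9 annotated Pde4dip transcripts.

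Because miR-7225-5p is part of a spliced mRNA, its exact sequence occurs in 2 long Pde4dip transcripts besides its own hairpin. Reads of that mRNA cannot be told from reads of the miRNA in this row. The same holds for miR-7225-3p, whose exact sequence occurs in the same Pde4dip transcripts. The exact sequences of miR-6343 and miR-6538 occurred in their own hairpins and in no other of 141767 GENCODE transcripts. With 1 mismatch allowed, miR-6538 also matched transcripts of Dact3 and Epm2a, on the opposite strand. No row of the table overlaps any of the 3 on the opposite strand, and the table lists each at 1 place. The genome itself was not searched for further copies. mRNA of the host genes was not analysed here.

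Levels are CPM (reads of a row as a share of the library's reads) scaled by TMM, a method of edgeR that adjusts for differences in composition between libraries. Total counts were 1226187 to 3509001 per library, so 1 count was worth 0.256 to 0.940 CPM. These values chose the 3 miRNAs, so they are given as a description, with no test.

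miR-6343 had 0, 3 and 33 counts in sham 47, 68 and 69, or 0, 1.51 and 12.9 CPM. In TAC 29, 78 and 81 it had 127, 139 and 82 counts, or 76.8, 93.4 and 77.1 CPM. The lowest TAC heart was 5.94 times the highest sham heart, which was sham 69. Sham 47, the most deeply sequenced heart, had none, which allows a level of up to 0.767 CPM (3 counts, counting error only). The sham mean was 4.81 ± 7.07 CPM and the TAC mean 82.4 ± 9.51 CPM (SD, n = 3 each), a log2 fold change of 4.18 ± 0.78 (SE), or 18.1-fold.

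miR-6538 was the most abundant of the 3. It had 14.8, 16.6 and 70.1 CPM in sham 47, 68 and 69 (58, 33 and 179 counts). In TAC 29, 78 and 81 it had 375, 550 and 339 CPM (620, 819 and 361 counts). Sham 69 again stood above the other sham hearts, at 4.47 times their mean, and below every TAC heart. The means were 33.8 ± 31.4 and 422 ± 113 CPM (SD, n = 3 each), a log2 fold change of 3.64 ± 0.56 (SE), or 12.5-fold. By mean level it ranked 216 of 1966 rows in the sham group and 87 in the TAC group.

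miR-7225-5p had 0.767, 5.52 and 11.4 CPM in sham 47, 68 and 69 (3, 11 and 29 counts). In TAC 29, 78 and 81 it had 44.2, 49.7 and 55.5 CPM (73, 74 and 59 counts). The sham hearts were spread over 14.8-fold and the TAC hearts over 1.26-fold. The means were 5.88 ± 5.31 and 49.8 ± 5.65 CPM (SD, n = 3 each), a log2 fold change of 3.18 ± 0.56 (SE), or 9.05-fold. In all 3 miRNAs the groups did not overlap and TAC was higher, as in 29.4% of the 354 tested rows. All 3 passed the filter on low counts, which their TAC libraries ensured.

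The 3 miRNAs were minor species in every heart. Even miR-6538 made up only 0.00165%, 0.00181% and 0.00791% of the library in sham 47, 68 and 69. Its share was 0.0345%, 0.0499% and 0.0294% in TAC 29, 78 and 81. miR-6343 ranked 361 of 1966 rows by mean level in the sham group and 166 in the TAC group, and miR-7225-5p ranked 345 and 194. In CPM, which takes no account of their lengths of 19 to 22 bases, the order was the same in every TAC heart, miR-6538 highest and miR-7225-5p lowest. In sham the order of miR-6343 and miR-7225-5p changed from heart to heart, as miR-6343 was lower in sham 47 and 68 and slightly higher in sham 69. Counting error alone does not cover the gap between sham hearts: for miR-6538 the 95% exact Poisson interval was 60.2 to 81.2 CPM in sham 69, against 11.3 to 19.2 in sham 47 and 11.4 to 23.3 in sham 68. For miR-6343 it was 8.90 to 18.2 CPM in sham 69, against 0.311 to 4.40 in sham 68, and for miR-7225-5p 7.61 to 16.3 CPM in sham 69, against 2.76 to 9.88 in sham 68, where the intervals overlapped.

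**Figure D2:**
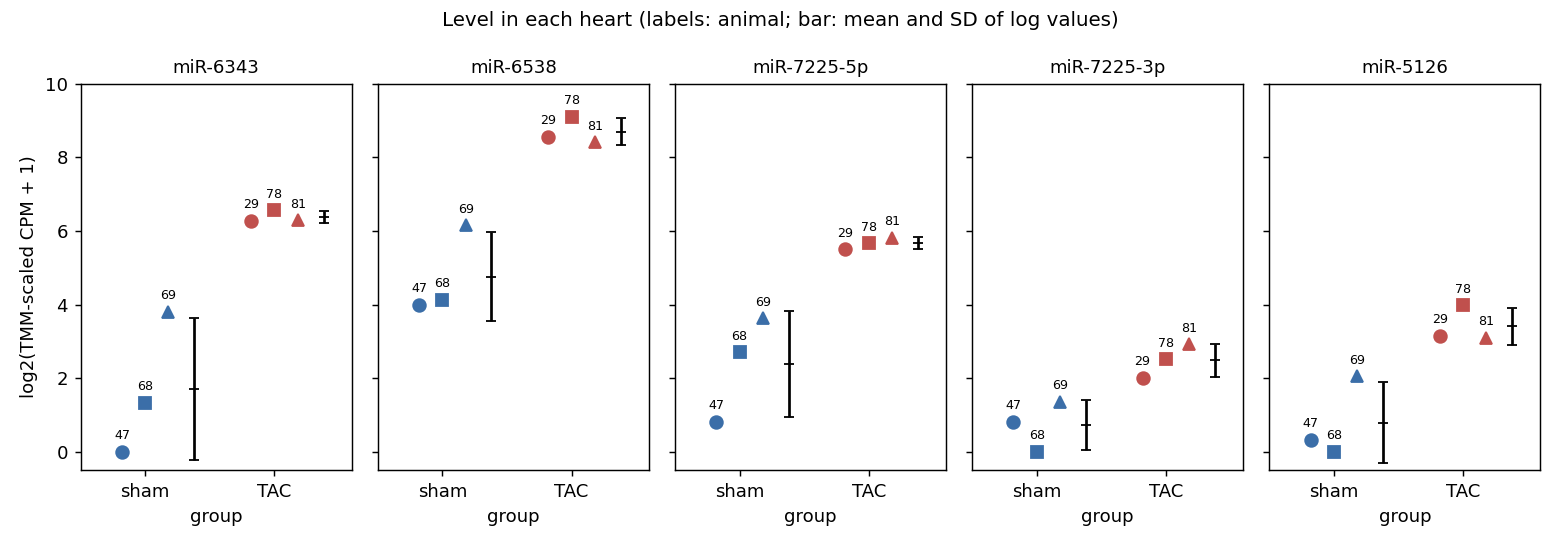
Level in each heart as log2(CPM + 1) (vertical axis) for miR-6343, miR-6538, miR-7225-5p, miR-7225-3p and miR-5126, with sham in blue and TAC in red, the animal number at each point, and the mean and SD of the log values as a bar (n = 3 per group). In each panel the highest sham heart is 69 and every TAC heart lies above it.

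The threshold of 9-fold fell between 2 rows with nearly the same fold. miR-7225-5p, at 9.05-fold, was just inside it, and miR-5126, at 8.97-fold, was just outside. miR-5126 (chr1:84695890-84695911, plus strand) lies opposite the first exon of Dner, which encodes a neuronal Notch ligand, and consists of G and C alone. It had 0.256, 0 and 3.13 CPM in sham 47, 68 and 69 (1, 0 and 8 counts) and 7.87, 14.8 and 7.52 CPM in TAC 29, 78 and 81 (13, 22 and 8 counts). Like the 3 miRNAs, it was low in sham, highest there in sham 69, and higher in every TAC heart. Its log2 fold change was 3.16 ± 0.79 (SE, edgeR adjusted p = 0.0178, adjusted p = 0.0677 without TAC 78). It was named for its rise in this same comparison, so these p-values are no separate support. With single hearts left out its log2 fold change was 2.53 to 5.45, the highest without sham 69, where it rests on 1 sham count. The order of the rows at the threshold was not fixed: miR-5126 had the larger log2 fold change of the pair with DESeq2 (3.11 against 3.03) and without sham 47, sham 69, TAC 29 or TAC 81, and without sham 69 it also passed miR-6538 (4.74). Without a low-count filter miR-3084-5p, miR-208b-5p and miR-1224-5p, named after their values were seen, had larger fitted rises than the 3 miRNAs but were not called. The next rise was much smaller: miR-153-3p, in an intron of Ptprn2, went from 2.73 ± 1.64 to 9.43 ± 2.05 CPM (SD, n = 3 each), or 3.15-fold. Among the rows called by edgeR, miR-3097-3p, miR-150-5p, miR-451a and miR-19b-3p followed at 2.26-fold, 2.25-fold, 2.22-fold and 2.09-fold. The call of miR-153-3p was lost without sham 68, sham 69, TAC 29 or TAC 81, and that of miR-3097-3p in 11 alternatives, including each that left out a heart.

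**Figure D3:**
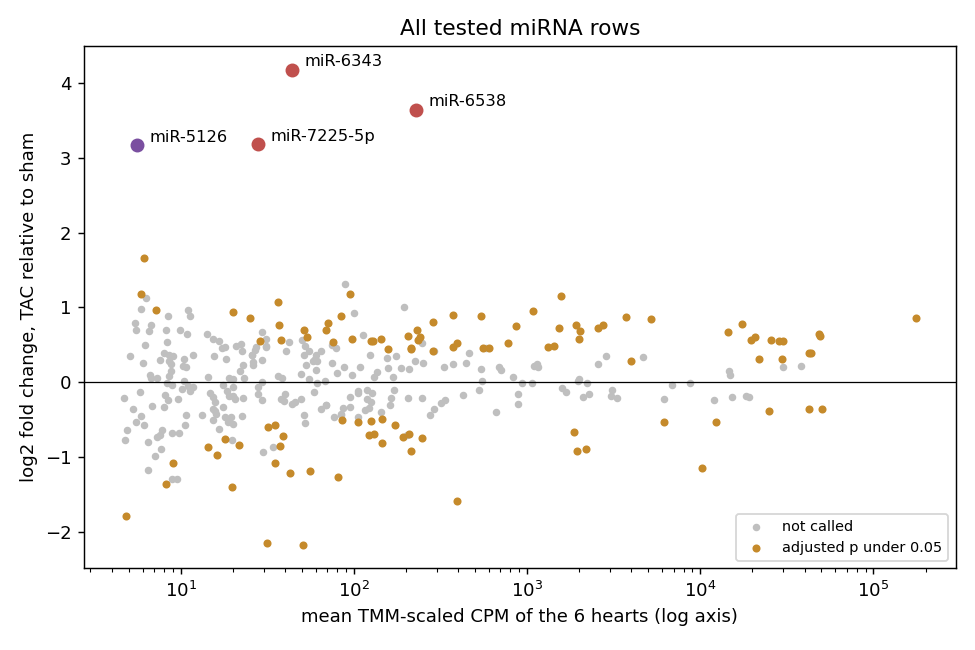
Log2 fold change in TAC relative to sham (vertical axis) against mean CPM over the 6 hearts (log axis) for the 354 tested rows, with rows of an edgeR adjusted p under 0.05 in orange. The 3 miRNAs (red, 3.18 to 4.18) and miR-5126 (purple, 3.16) lie apart from the remaining rises, of which the next is miR-153-3p at 1.66.

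The one other row from the same hairpins, host genes or neighbourhoods (10000 bases) was miR-7225-3p, the opposite arm of the miR-7225 hairpin, which was not used to choose the 3. It had 3, 0 and 4 counts in sham 47, 68 and 69 (0.767, 0 and 1.57 CPM) and 5, 7 and 7 counts in TAC 29, 78 and 81 (3.03, 4.70 and 6.58 CPM). The groups did not overlap and TAC was higher, which is the direction of the 5′ arm. Among the 354 tested rows, 29.4% were separated in the same way. The counts of miR-7225-3p were too low for the main test. Without a low-count filter its log2 fold change was 2.25 ± 0.74 (SE, edgeR adjusted p = 0.0283), in a fit where 3.82% of 1100 rows were called higher. For miR-6343, miR-6538 and miR-7225-5p that fit gave SEs of 0.27, 0.20 and 0.27, against 0.78, 0.56 and 0.56 in the main analysis. Adjusted p-values of that fit may thus be too small for rows that spread widely between hearts. The exact permutation test of the miR-7225-3p CPM values, two-sided, gave p = 0.1, the smallest that 3 against 3 hearts allow. With the hearts of a group pooled, 19 counts in TAC against 7 in sham gave a ratio of 5.46 (95% exact interval 2.20 to 15.4, counting error only), against 9.63 (6.91 to 13.7) for miR-7225-5p. Both arms lie in the Pde4dip mRNA, so reads of that mRNA could be in either row.

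The 5′ arm held most counts of the hairpin in both groups when the hearts of a group were pooled. It took 86.0% of 50 counts in the sham hearts (95% exact interval 73.3 to 94.2, counting error only). In the TAC hearts it took 91.6% of 225 counts (87.1 to 94.8, counting error only), so these intervals overlapped. In TAC 29, 78 and 81 the share was 93.6%, 91.4% and 89.4%. In sham 69 it was 87.9% of 33 counts (71.8 to 96.6), in sham 68 100% of 11 counts (71.5 to 100) and in sham 47 50% of 6 counts (11.8 to 88.2). Reads of Pde4dip mRNA could be among the counts of either arm.

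Relative to the mean, the spread between hearts was wider in sham than in TAC for each of the 3 miRNAs. In CPM the SD was smaller in sham, at 7.07, 31.4 and 5.31 for miR-6343, miR-6538 and miR-7225-5p. The TAC SDs were 9.51, 113 and 5.65 CPM. The relative spread divides the SD by the mean, and the sham means were low by choice. The coefficient of variation (CV) in sham was 147% for miR-6343, 92.9% for miR-6538 and 90.2% for miR-7225-5p, against a median of 13.7% over the 354 tested rows. In TAC it was 11.5%, 26.8% and 11.3%, against a median of 14.1%, and the 26.8% of miR-6538 was reached or passed by 21.5% of tested rows. Only 8 tested rows had a sham CV of 90.2% or more. Besides the 3 miRNAs and miR-5126 they were miR-6238, miR-6240, miR-200a-3p and miR-200b-3p, named after their values were seen. In those 4 the highest sham heart was 68, and miR-6238 and miR-6240 were also widely spread in TAC (CV 145% and 137%).

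**Figure D4:**
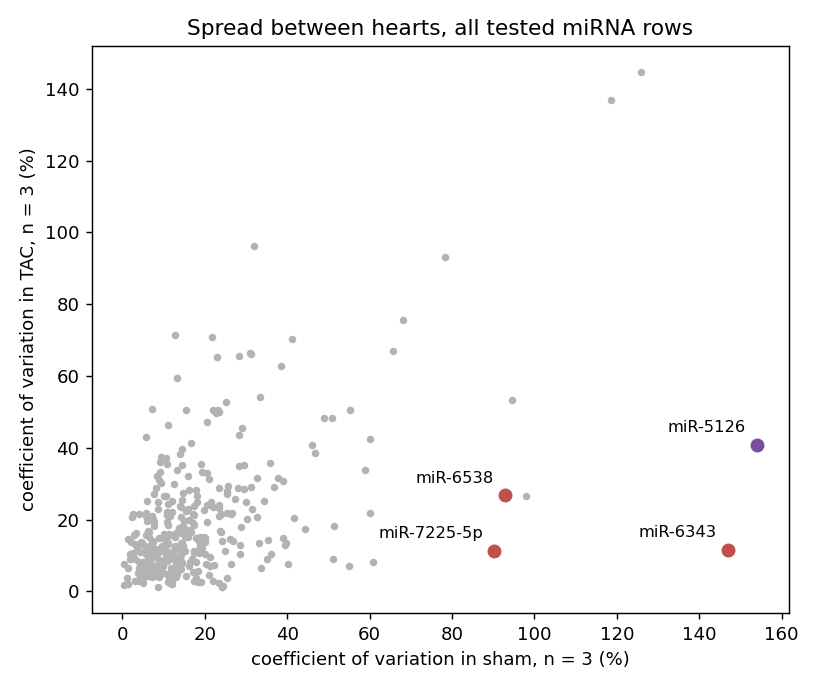
Coefficient of variation between the 3 TAC hearts (%, vertical axis) against that between the 3 sham hearts (%, horizontal axis) for the 354 tested rows. The 3 miRNAs (red) lie far to the right, with 90.2% to 147% in sham, and at 11.3% to 26.8% in TAC, where the median is 14.1% and miR-6538 is the highest of the 3. miR-5126 (purple) lies at 154% and 40.8%.

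Sham 69 was the highest sham heart for each of the 3 miRNAs, as it was in 39.3% of all tested rows and 29.4% of the 68 rows called higher. Set against sham 69 alone, the mean of the TAC hearts was 6.38 times as high for miR-6343, 6.01 times for miR-6538 and 4.38 times for miR-7225-5p. Without sham 69 the fitted log2 fold changes were 7.12 ± 0.55, 4.74 ± 0.26 and 4.26 ± 0.49 (SE). For miR-6343 that rests on 3 sham counts, and the pooled ratio was 163 with a 95% exact interval of 55.2 to 793 (counting error only). Sham 47 was the lowest sham heart for each of the 3, though for miR-6538 only slightly (14.8 CPM, against 16.6 in sham 68). Without sham 47 the fits gave 3.45 ± 0.54, 3.29 ± 0.54 and 2.53 ± 0.30. The direction was the same in all of these, as groups that do not overlap keep their order when a heart is left out.

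**Figure D5:**
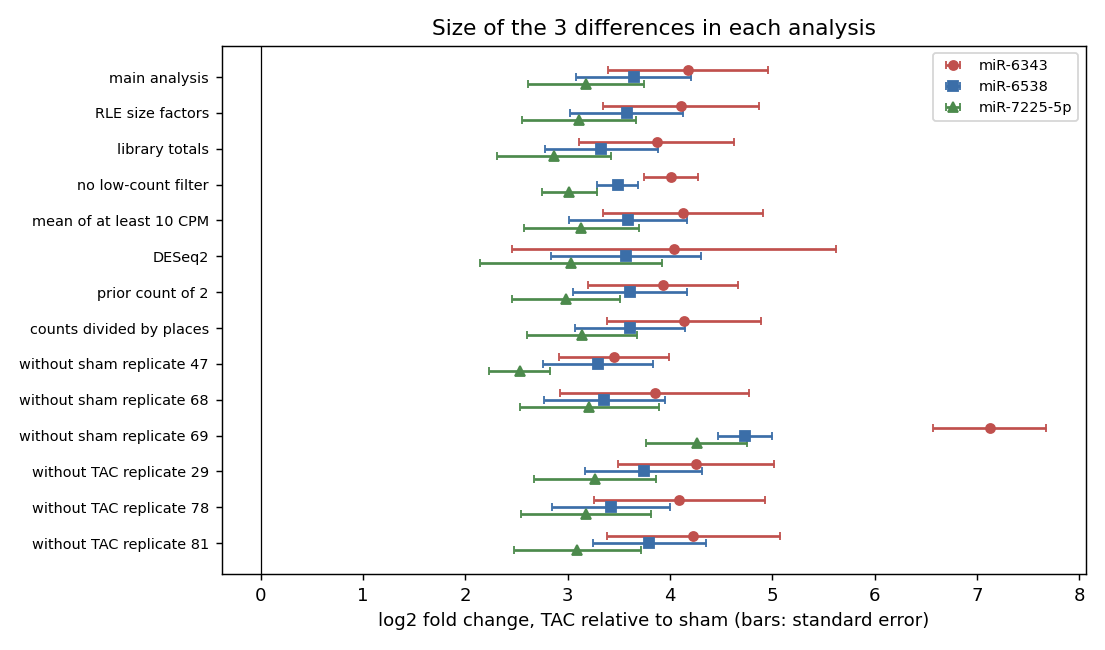
Log2 fold change in TAC relative to sham with its standard error (horizontal axis) for miR-6343 (red circles), miR-6538 (blue squares) and miR-7225-5p (green triangles) in the main analysis and 13 alternatives (vertical axis). All values are above 2.5, and leaving out sham 69 moves all 3 up, miR-6343 to 7.12.

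Over the 6 hearts the 3 miRNAs varied together, with Pearson's r of 0.953 to 0.986 between pairs on the log2 CPM scale. As 3 of these 6 points are TAC and 3 are sham, r is high for any row that differs clearly between groups, and it is given as a description only. Of 351 other tested rows, the 5 most like the mean of the 3 were miR-30e-5p (r = 0.968), let-7d-5p (0.966), miR-185-5p (0.963), miR-5126 (0.963) and miR-30b-5p (0.960). The sizes differed widely. miR-30e-5p, an abundant miRNA of heart muscle in an intron of Nfyc, went from 3729 ± 450 to 6681 ± 387 CPM (SD, n = 3 each), or 1.79-fold, and let-7d-5p from 1046 ± 51.3 to 1221 ± 27.1, or 1.17-fold.

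The 3 miRNAs have late numbers and host genes, and other rows with these features are given beside all tested rows. Of 826 other rows numbered 5000 and above, 432 had 0 counts in every heart and 23 were tested. In these, edgeR called 2 higher and 1 lower, or 13.0%, against 30.5% of all tested rows (30.9% by DESeq2), with a median log2 fold change of 0.37 against 0.07. The called rows were miR-5126, miR-6239 (0.58 ± 0.15, 114 ± 13.3 to 170 ± 15.5 CPM) and miR-6944-3p, in an intron of Dbn1 (-1.78 ± 0.41, 7.56 ± 0.66 to 2.13 ± 0.49 CPM). The call of miR-6239 was lost with library totals, without a filter, and without sham 47, sham 69, TAC 78 or TAC 81, and without TAC 78 the list had 1 call (5 without TAC 29). Of 1427 other rows inside a longer gene on their own strand, 246 were tested, with 47 higher (19.1%) and 25 lower (10.2%). With library totals the host-gene split turned to 13 higher and 70 lower, with RLE factors to 32 and 37, with counts divided by places to 33 and 34, and without a filter to 25 and 41. In the main analysis all tested rows had 19.2% higher and 11.3% lower, and the median was 0.07 in both. Among host-gene rows the smallest p-values belonged to miR-499-5p, in an intron of the myosin gene Myh7b (0.88 ± 0.08), miR-214-3p (-1.58 ± 0.18), miR-101a-3p (0.76 ± 0.09) and miR-30e-5p (0.84 ± 0.10).

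Some catalogued miRNAs overlap structural RNAs such as small nucleolar RNAs, which guide chemical changes on ribosomal RNA. None of the 3 matched an annotated structural RNA with up to 1 mismatch, but the annotation used holds no complete ribosomal RNA precursor, so that part was not searched. Of transfer RNAs only mitochondrial ones were among the types searched. Of 28 rows that did match a structural RNA, 12 were tested and edgeR called 0, with 3 at an unadjusted p under 0.05 and 0 called by DESeq2. With library totals 3 of them were lower, against 102 of all 354 tested rows. GC-rich rows are a list made after the values of miR-6538 were seen. Of 14 tested rows with 70% GC or more besides miR-6538, 1 was called higher (miR-5126) and 1 lower, with a median of 0.13. Over all 354 tested rows edgeR called 19.2% higher and 11.3% lower, with a median of 0.07.

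The libraries carried the markers of heart muscle. miR-1a-3p, miR-133a-3p, miR-208a-3p and miR-499-5p were all detected, at a summed 151805 to 183052 CPM in sham and 273500 to 325883 in TAC. By edgeR 4 of 4 rose (log2 fold changes 0.56 to 0.88), or 2 of 4 with library totals and 3 of 4 without a filter. Of all tested rows, edgeR called 19.2% higher in the main analysis, 25 of 354 with library totals and 42 of 1100 without a filter. Of 7 leukocyte markers 6 were tested and 2 rose, miR-150-5p in each alternative and miR-223-5p in the main analysis, with its call lost in 11 alternatives, including each that left out a heart. miR-223-3p, the other arm of that hairpin, had 16.1 CPM in sham and 14.5 in TAC (means, log2 fold change -0.19, edgeR adjusted p = 0.549). The leukocyte sum was 1118 to 1509 CPM in sham and 1510 to 1636 in TAC. Of 3 red blood cell markers miR-451a rose and miR-144-3p and miR-144-5p did not pass, with sums of 1000 to 1165 and 1642 to 3063 CPM. miR-142a-3p of leukocytes and the liver marker miR-122-5p were at 0 in every heart, which allows levels of up to 0.767 to 2.82 CPM (3 counts, counting error only). The other arm of the miR-142a hairpin, miR-142a-5p, had 109 CPM in sham and 140 in TAC (means). Whether reads could be assigned to the miR-142a-3p row was not tested, and its limit holds only if they could. The part of the muscle, leukocyte and red blood cell markers that rose in the difference of the 3 miRNAs was not tested.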

How the data were processed

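The authors deposited raw read counts for each mature miRNA in each mouse, and 0 columns were left without a sample. The submitters' processing notes name mm10 as the build and list HISAT2, StringTie and DESeq2 without a role. How reads were trimmed and counted, and whether strand was used, is not given in the sources used here. Of 1966 rows, 1100 had a count, and mature sequences were matched by name and place for 1675.

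Counts were compared with edgeR 4.0.16 in R 4.3.3 (quasi-likelihood F-test, TMM, filterByExpr, no covariate). Each SE from edgeR was derived as the absolute log2 fold change divided by the square root of F. DESeq2 gave larger SEs for miR-6343, miR-6538 and miR-7225-5p, at 1.58, 0.73 and 0.89. p-values were adjusted by Benjamini-Hochberg over the 354 rows tested, and rows under 0.05 are called. The pipeline was tested on simulated data. Intervals used scipy 1.17.1, and hairpins were folded with RNAfold 2.7.2. Alternatives were DESeq2 1.42.0, RLE factors, library totals, no filter, a mean of at least 10 CPM, a prior count of 2, counts divided by places, exact structural matches and leaving out each heart.

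The 3 miRNAs, the lists and the tests were chosen with earlier results of these data known. Rows named are the 3, their hairpin, host or seed relatives, the next 6 called rises, the 5 most alike by r, up to 4 called rows per list with the smallest p, and cell markers. Labels give each library its own mouse.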

Additional observations from a re-analysis of the deposited data

How the results depend on the processing

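No paired analysis was possible because the animal numbers are not shared between the groups. In all 13 alternatives TAC was higher for the 3 miRNAs. They were chosen for a large rise in these same hearts, so that direction was all but fixed in advance and is no separate support. Leaving out each heart gave log2 fold changes of 3.45 to 7.12 for miR-6343, 3.29 to 4.74 for miR-6538 and 2.53 to 4.26 for miR-7225-5p. In the others they were 3.87 to 4.14, 3.33 to 3.61 and 2.87 to 3.14, so miR-7225-5p was under 9-fold in each of those, at 7.29-fold with library totals. The split of 68 rows higher and 40 lower became 50 and 56 with RLE factors, 25 and 102 with library totals, 42 and 65 without a filter, 59 and 50 with DESeq2 and 51 and 52 with counts divided by places. Over all tested rows the median log2 fold change was 0.07 in the main analysis, -0.24 with library totals and -0.14 without a filter. Leaving out each heart gave 64 to 83 called rows in all, the fewest without TAC 81 (64) and TAC 78 (69), 41 to 53 of the host-gene rows (47 without sham 69, 44 without TAC 78, 41 without TAC 81) and 1 to 5 of the late-numbered rows (5 without TAC 29, 1 without TAC 78). Late-numbered calls were 3 in the main analysis, 8 without a filter and 1 with a mean of at least 10 CPM. Structural RNA calls, 0 in the main analysis, were 1 with RLE factors, 3 with library totals, 2 without a filter, 1 with counts divided by places and 0 to 1 leaving out each heart. miR-7225-3p was tested, and called, only without a filter (1 row called, against 0). Apart from leaving out hearts, which leaves fewer samples, the cause of these changes was not tested. Counts of 0 to 11 in sham hearts limit the fold of miR-6343 and miR-7225-5p.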
